A study of Mus musculus with 2 samples.

Results

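The fibroblast growth factor (FGF) and hepatocyte growth factor (HGF) signalling genes of prostate-inducing mesenchyme were examined as a set of 10: the ligand genes Fgf2, Fgf7, Fgf10 and Fgf18, the receptor genes Fgfr1, Fgfr2, Fgfr3 and Fgfrl1, and the ligand and receptor pair Hgf and Met. They were taken by name, as every probe set annotated to one of these symbols alone, which gave 20 of the 45101 probe sets on each array and 10 of 18193 named genes. The cells were urogenital sinus mesenchyme (UGM) cells, fetal stromal cells that surround the epithelium of the urogenital sinus, taken from male C57BL/6 mice at day 16. One culture received testosterone (12 nM) and estradiol-17 beta (120 pM), abbreviated T+E2, and the other was left untreated. For 72 h both were kept in RPMI medium whose 5% serum had been stripped of steroids with dextran and charcoal, with the antibiotic Plasmocin at 5 µg/ml. The sample titles say 24 h where every other label says 72 h, and the descriptions call the untreated cells confluent and the T+E2 cells nearly confluent at treatment, where the growth protocol gives 80% for both. With 1 culture per condition, any difference in cell density would run with treatment and cannot be told apart from it. The number of mice behind each culture is not stated, and neither is whether the cells were a primary culture or a line.

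FGFs are secreted proteins that bind receptor tyrosine kinases together with heparan sulfate chains and pass a signal through the Ras and MAP kinase cascade. In the developing prostate the mesenchyme is a source of FGF10 and FGF7, which act on an epithelial splice form of FGFR2 and promote budding and branching. HGF, also called scatter factor, is typically made by mesenchyme and read by MET on epithelium, which makes the pair another route from stroma to epithelium.

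There was 1 array for each condition, so no difference below has a replicate check and none carries a p-value. Values are GCRMA intensities, a scale on which unlit probe sets gather near the bottom, and a gene counted as measured when at least 1 array reached an intensity of 32 (log2 of 5, called the floor here). Levels of different probe sets are not read as relative amounts of transcript, since each binds its target with its own strength. The summed intensities of marker lists below add such levels, so a single bright probe set can dominate them. On the T+E2 array 42.1% of probe sets reached the floor, and on the untreated array 42.9%. Of 14 analysed markers of urogenital mesenchyme, 10 were measured, among them Vim, Pdgfra, Col1a1, Col3a1 and Twist1. The matrix proteoglycan genes of the list were lower with T+E2, Lum at 55.9 with T+E2 and 196 in untreated cells (log2 difference -1.81) and Dcn at 12543 with T+E2 and 18705 in untreated cells (-0.58), and the other 8 measured markers lay above 0 by 0.08 to 0.67. Thy1, Des and the posterior Hox genes Hoxa13 and Hoxd13 lay under the floor on both arrays. Hoxd13 stood at an intensity of 4.87 with T+E2 and 5.16 in untreated cells, so these probe sets gave no sign of the posterior Hox code that marks the urogenital sinus.

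Of the 10 genes, 5 were measured (Fgf7, Fgfr1, Fgfr2, Fgfrl1 and Met) and 5 lay under the floor on both arrays (Fgf2, Fgf10, Fgf18, Fgfr3 and Hgf). All 5 measured genes reached the floor on both arrays, so no member crossed the floor between the conditions. Of the 20 probe sets, 9 reached the floor and 11 did not. Across all named genes 56.4% were measured. Of the measured members, Fgfr1, Fgfr2 and Met were 1.55-fold to 1.69-fold higher with T+E2, and Fgf7 and Fgfrl1 differed by less.

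**Figure D1:**
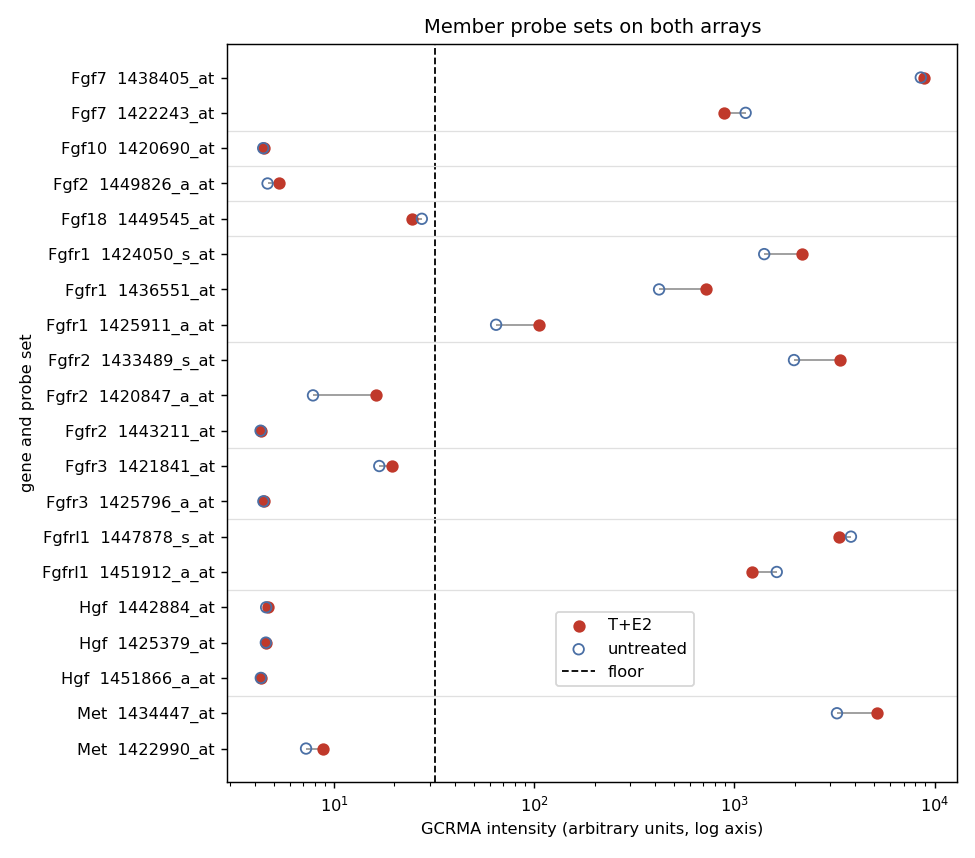
GCRMA intensity (log axis) of the 20 member probe sets, with T+E2 as filled and untreated as open circles, 1 array each, and the dashed line at the floor of 32. Fgf7, Fgfr1, Fgfrl1 and 1 probe set each of Fgfr2 and Met lie right of the floor, while every probe set of Fgf10, Fgf2, Fgf18, Fgfr3 and Hgf lies left of it on both arrays.

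Upstream sequences were available for 9 of the 10 genes, all but Fgfr1, from RefSeq (assembly GRCm38.p6), and 5 of them are shown because they belong to the genes on which the results turn. Met and Fgfr2 were both higher with T+E2, Fgf7 and Fgf10 are sister ligands on opposite sides of the floor, and Hgf is the ligand of Met. Each is the 250 bases before a transcript start, 5′ to 3′ on the gene's strand, and capitals mark any match to the motifs described after them.
Met (chr6:17463707-17463956, plus strand): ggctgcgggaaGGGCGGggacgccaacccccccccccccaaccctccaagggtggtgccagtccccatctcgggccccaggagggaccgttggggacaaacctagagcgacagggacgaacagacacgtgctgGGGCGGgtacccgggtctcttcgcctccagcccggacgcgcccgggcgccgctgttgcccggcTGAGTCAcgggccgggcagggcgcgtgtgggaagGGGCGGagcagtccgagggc
Fgfr2 (chr7:130266809-130267058, minus strand): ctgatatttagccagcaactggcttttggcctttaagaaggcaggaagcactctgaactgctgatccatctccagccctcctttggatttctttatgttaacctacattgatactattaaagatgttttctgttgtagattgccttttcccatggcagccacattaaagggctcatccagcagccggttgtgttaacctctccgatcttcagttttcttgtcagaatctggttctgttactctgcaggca
Fgf7 (chr2:126034408-126034657, plus strand): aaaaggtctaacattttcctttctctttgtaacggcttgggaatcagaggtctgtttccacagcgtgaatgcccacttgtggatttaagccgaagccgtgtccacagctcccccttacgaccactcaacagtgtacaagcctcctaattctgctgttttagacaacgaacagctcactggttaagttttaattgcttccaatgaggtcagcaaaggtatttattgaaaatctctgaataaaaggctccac
Fgf10 (chr13:118714449-118714698, plus strand): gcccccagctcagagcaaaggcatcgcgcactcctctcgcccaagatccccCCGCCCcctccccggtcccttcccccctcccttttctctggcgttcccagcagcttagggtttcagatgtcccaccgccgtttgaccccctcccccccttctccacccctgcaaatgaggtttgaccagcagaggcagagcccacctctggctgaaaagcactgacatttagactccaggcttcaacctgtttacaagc
Hgf (chr5:16553651-16553900, plus strand, the second of 2 starts): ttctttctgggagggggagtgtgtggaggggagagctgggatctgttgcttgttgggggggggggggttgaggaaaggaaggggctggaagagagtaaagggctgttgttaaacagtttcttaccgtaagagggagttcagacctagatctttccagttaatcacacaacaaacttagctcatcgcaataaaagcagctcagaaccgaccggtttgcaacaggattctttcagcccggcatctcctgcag

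The motifs were searched on both strands. They were the androgen receptor palindrome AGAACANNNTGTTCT and its hexamer AGAACA, the estrogen receptor palindrome GGTCANNNTGACC, the AP-1 site TGANTCA and the GC box GGGCGG, and the hexamer is part of the androgen palindrome. Neither palindrome nor the androgen hexamer occurred in any of the 11 windows of the 9 genes. Across 32851 windows of the same length, 0.00913% held the androgen palindrome, 0.0639% the estrogen palindrome and 16.1% the hexamer. The Met window held the sole AP-1 match among the 11 windows, which began 54 bases before the start, and 3 GC boxes. AP-1 matches were present in 6.75% of all windows and GC boxes in 32.7%. A match in these letters is a description of the window and not evidence of a bound site, and sequence farther away was not searched.

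The windows differed in their CG dinucleotides, at which mammalian DNA is methylated and which are dense in the promoters of widely used genes. Met had 24 and Fgfrl1 30, against a median of 6 over all windows. Fgf7, one of the measured genes, had 6, and Fgfr2 had 2 at the listed start. Fgf18, with 37, had the most of all the member windows and lay under the floor on both arrays. Density of CG therefore did not separate the genes with signal from those without among these 9.

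Among the ligands, Fgf7, also called keratinocyte growth factor, was the member with clear signal. Its probe set 1438405_at had an intensity of 8880 with T+E2 and 8532 in untreated cells, a log2 difference of 0.06. A second probe set, 1422243_at, had 884 with T+E2 and 1137 in untreated cells, a log2 difference of -0.36. The probe sets thus lay on opposite sides of 0, and no direction is given for Fgf7. Both were well above the floor in both cultures, so Fgf7 transcript was present with and without added steroid.

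Fgf10, a ligand needed for normal prostate budding in mice, gave no signal. Its one probe set had an intensity of 4.45 with T+E2 and 4.42 in untreated cells, against a lowest value over all probe sets of 3.75 on the T+E2 array and 3.82 on the untreated array. Fgf2, a broadly acting mitogen that lacks a classical secretion signal, had 5.29 with T+E2 and 4.64 in untreated cells, again on one probe set. Fgf18, a ligand best known in skeletal and lung development, had 24.3 with T+E2 and 27.4 in untreated cells. It came closest to the floor of the 5 unmeasured genes without reaching it. Because Fgf2, Fgf10 and Fgf18 were each read by one probe set, a probe set that failed and a transcript that was not there cannot be told apart.

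Hgf was read by 3 probe sets and none showed signal. Their intensities were 4.68, 4.57 and 4.32 with T+E2 and 4.57, 4.55 and 4.30 in untreated cells, in the order 1442884_at, 1425379_at and 1451866_a_at. All 6 values lay within a narrow band at the bottom of the arrays' range. Of 12 genes of HGF activation, of its inhibition and of the related ligand and receptor Mst1 and Mst1r, 1 was measured, the tissue plasminogen activator gene Plat, at 1007 with T+E2 and 1526 in untreated cells (log2 difference -0.60). The HGF-activating protease genes Hgfac, St14 and Hpn and the inhibitor genes Spint1 and Spint2 were under the floor on both arrays.

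Met, the HGF receptor gene, did have signal in these cells. Its probe set 1434447_at had an intensity of 5169 with T+E2 and 3252 in untreated cells, which is 1.59-fold higher with T+E2 (log2 difference 0.67). The other probe set, 1422990_at, stayed under the floor, at 8.74 with T+E2 and 7.23 in untreated cells, so the difference rests on one probe set. Receptor transcript was therefore recorded in cultures in which no Hgf probe set had signal.

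The receptor tyrosine kinase genes Fgfr1 and Fgfr2 were both higher with T+E2 by less than 2-fold. Fgfr1 had an intensity of 2184 with T+E2 and 1408 in untreated cells on 1424050_s_at, which is 1.55-fold higher (log2 difference 0.63). Its other probe sets lay on the same side, with 721 with T+E2 against 420 in untreated cells on 1436551_at, and 105 with T+E2 against 64.4 in untreated cells on 1425911_a_at. The suffix _s_at marks a set whose probes can match more than one transcript, and it is carried by the sets that gave the values of Fgfr1, Fgfr2 and Fgfrl1. The log2 differences of the other Fgfr1 sets were 0.78 and 0.71, so the 3 probe sets of Fgfr1 spanned 0.63 to 0.78.

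Fgfr2 encodes the receptor that FGF7 and FGF10 use in its epithelial splice form. It had 3348 with T+E2 and 1983 in untreated cells on 1433489_s_at, which is 1.69-fold higher and the largest difference among the measured members (log2 difference 0.76). The remaining probe sets were under the floor on both arrays, with 16.2 with T+E2 against 7.83 in untreated cells on 1420847_a_at, and 4.30 with T+E2 against 4.28 in untreated cells on 1443211_at. The annotation does not say which splice form a probe set reads, so the epithelial and mesenchymal forms were not told apart. Esrp2, which encodes an epithelial splicing factor known to promote the epithelial form of FGFR2, had 5889 with T+E2 and 3782 in untreated cells (log2 difference 0.64), and its relative Esrp1 was under the floor on both arrays.

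Fgfr3 was under the floor on both arrays. Its brighter probe set had 19.4 with T+E2 and 16.8 in untreated cells, and the other had 4.44 with T+E2 and 4.42 in untreated cells. Fgfrl1, which encodes a receptor that binds FGFs but lacks the tyrosine kinase domain, was lower with T+E2 by a small amount. It had 3320 with T+E2 and 3820 in untreated cells on 1447878_s_at (log2 difference -0.20), and 1219 with T+E2 and 1627 in untreated cells on 1451912_a_at (-0.42). Both probe sets of Fgfrl1 thus lay below 0, whereas all those of Fgfr1 and Fgfr2 at the floor lay above it.

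None of the 5 measured members was at least 2-fold different in either direction. Over all 10267 measured genes, the share at least 2-fold higher with T+E2 was 4.96% and the share lower by as much was 4.01%, or 8.97% in all, so a count of 0 among 5 is near what the background gives. The median log2 difference of the 5 was 0.63, against 0.07 over all measured genes, whose central range from the first to the third quartile ran from -0.32 to 0.45. Of all measured genes, 10.7% had a larger difference than Fgfr2, 13.7% a larger one than Met and 15.0% a larger one than Fgfr1. Fgf7 lay near the middle, with 51.0% of genes above it, and 31.4% of genes lay below Fgfrl1. In bulk RNA a change in the share of cells of one type and a change in RNA per cell cannot be told apart.

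**Figure D2:**
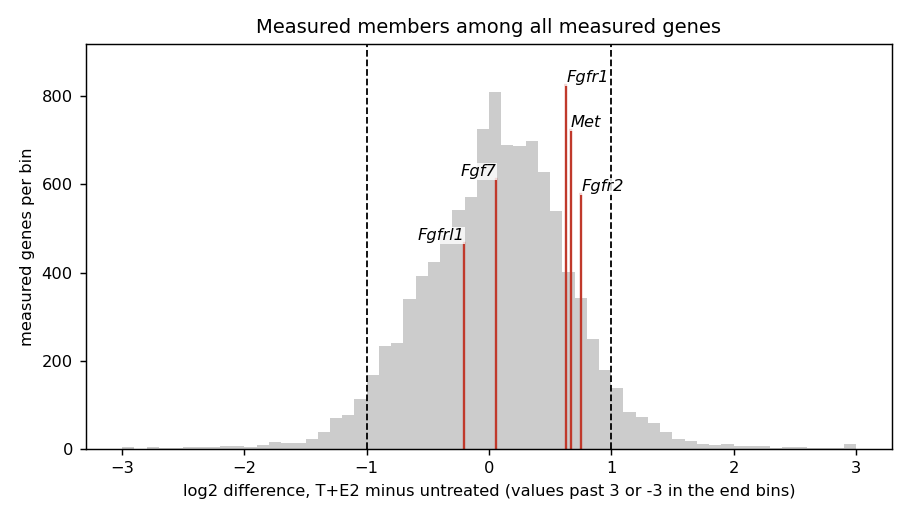
Histogram of the log2 difference (T+E2 minus untreated, 1 array each) over 10267 measured genes, with the 5 measured members as red lines whose heights carry no meaning and dashed lines at 2-fold. Fgfr1 (0.63), Met (0.67) and Fgfr2 (0.76) lie in the right shoulder, short of 2-fold, Fgf7 (0.06) near the centre and Fgfrl1 (-0.20) left of it.

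Longer genes tended to larger differences, where length is the genomic span from a gene's first to its last base. With the measured genes in 5 groups of equal size by span, the shortest group, up to 8.51 kb, had a median log2 difference of -0.19, and the longest, from 70.7 kb, had 0.46. Met spans 111 kb, Fgfr2 104 kb, Fgfr1 57.0 kb and Fgf7 56.5 kb, while Fgfrl1 spans 12.7 kb. With the trend removed by a smooth curve, the log2 differences became 0.40 for Fgfr1, 0.36 for Fgfr2, 0.26 for Met, -0.17 for Fgf7 and -0.12 for Fgfrl1. Fgfr2 and Met thus stood at or under 0.36 against genes of their own length, and Fgfr1 became the largest of the 5.

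**Figure D3:**
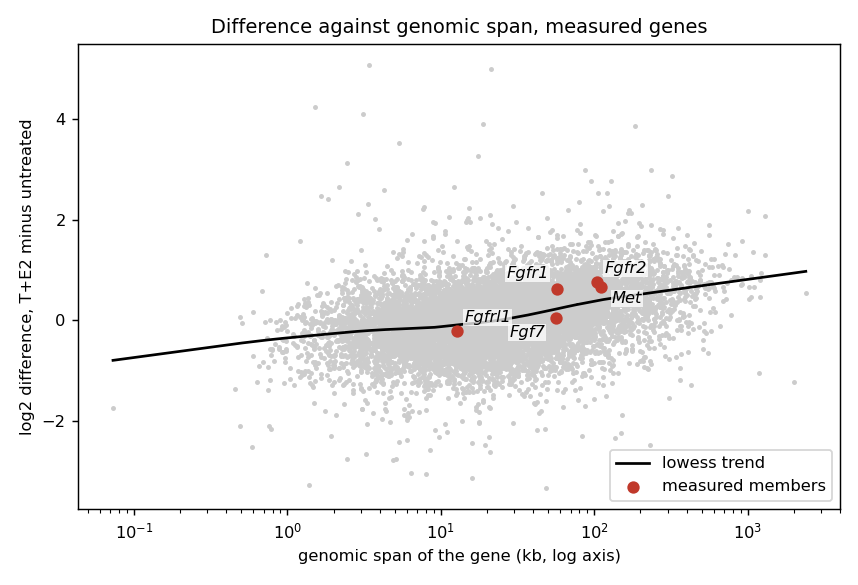
Log2 difference (T+E2 minus untreated, 1 array each) against genomic span (kb, log axis) for measured genes with a span in RefSeq, with the lowess trend in black and the 5 measured members in red. Fgfr1 (0.40 above the trend), Fgfr2 (0.36) and Met (0.26) lie above the curve, and Fgf7 (-0.17) and Fgfrl1 (-0.12) below it.

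Fgfr2 and Met are also expressed in epithelium, so the epithelial markers are given beside them. Of 18 epithelial markers 4 were measured, and their summed intensity over the whole list was 6556 with T+E2 and 4172 in untreated cells. Esrp2 alone gave 5889 of that sum with T+E2 and 3782 in untreated cells. Cdh1, the E-cadherin gene, had 190 with T+E2 and 41.4 in untreated cells, the basal cell gene Trp63 had 352 with T+E2 and 255 in untreated cells, and the tight junction gene Ocln had 61.5 with T+E2 and 30.0 in untreated cells, the last value under the floor. The defining markers Epcam, Krt5, Krt14, Krt8, Krt18 and Krt19 were all at 5.27 or less on both arrays. A part of epithelial cells in the differences of Fgfr2 and Met was not tested. Of 7 endothelial markers 1 was measured (Tek), with Pecam1 under the floor, and their summed intensity was 1067 with T+E2 and 930 in untreated cells. Of 7 leukocyte markers 2 were measured, with Ptprc under the floor. Lyz2, the lysozyme gene of macrophages, had 369 with T+E2 and 1065 in untreated cells (log2 difference -1.53), and Cd14 had 78.7 with T+E2 and 70.1 in untreated cells (0.17). The summed intensity of the leukocyte list was 475 with T+E2 and 1162 in untreated cells, and a part of these cells in the member differences was not tested.

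The other FGF ligand genes gave little signal on these arrays. Of 14 further secreted ligand genes, from Fgf1 to Fgf23, 1 was measured: Fgf5, at 67.8 with T+E2 and 54.9 in untreated cells (log2 difference 0.31). None of the 4 genes of the intracellular FGF homologous factors, Fgf11 to Fgf14, reached the floor. Counted with the members, Fgf7 and Fgf5 were the 2 secreted FGF ligand genes with signal.

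Of 9 further receptor and co-receptor genes 5 were measured, against 56.4% of all named genes, with a median log2 difference of 0.60, and none was at least 2-fold different. Il17rd, which encodes the FGF signalling inhibitor Sef, had 1057 with T+E2 and 574 in untreated cells (0.88), and Flrt3, which encodes an FGF receptor-binding membrane protein, had 195 with T+E2 and 128 in untreated cells (0.60). Fgfr4 and the co-receptor genes Kl and Klb, which the endocrine FGFs need, were under the floor on both arrays.

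Heparan sulfate, the sugar chain that holds FGFs to their receptors, was represented by core proteins and enzymes. Of 12 core protein genes 9 were measured, 1 was at least 2-fold higher and 0 were lower, with a median log2 difference of 0.28. For this and the following lists, the share of all measured genes past 2-fold was 4.96% higher and 4.01% lower. The higher one was Hspg2, which encodes the basement membrane proteoglycan perlecan, at 1620 with T+E2 and 746 in untreated cells (1.12, and 0.73 with the span trend removed). Of 19 analysed enzyme genes 13 were measured and all 13 lay above 0, with 2 at least 2-fold higher, 0 lower and a median of 0.44. Those were Hs3st3b1 at 1770 with T+E2 and 804 in untreated cells (1.14) and Hs3st3a1 at 593 with T+E2 and 274 in untreated cells (1.11), a pair of enzymes that add a late sulfate group. With the span trend removed Hs3st3b1 stood at 1.03 and Hs3st3a1 at 0.76. Of the 4 Hs3st3b1 probe sets 1 reached the floor, and Hs3st3a1 had 1 probe set. The trend removal took Hs6st2 (-0.55), Hs2st1 (-0.36), Ext1 (-0.28) and Glce (-0.12) below 0, and the other measured enzyme genes stayed above.

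Inside the cell, all 15 analysed genes of signal adaptors and kinases were measured. At 2-fold, 3 of them were higher with T+E2 and 0 lower, and the median log2 difference was 0.54. Gab2, a docking protein gene, had 139 with T+E2 and 60.3 in untreated cells (1.21). Cbl, which encodes a ubiquitin ligase that sends activated receptors to degradation, had 659 with T+E2 and 292 in untreated cells (1.18). With the span trend removed Gab2 stood at 0.67 and Cbl at 0.82, and Cbl stood at 0.86 as the mean of its probe sets. Of the 3 Gab2 probe sets 1 reached the floor, and Gab2 came to 0.89 with 32 added to each intensity. Cblb, a relative of Cbl, had 1846 with T+E2 and 909 in untreated cells (1.02), but its other probe set at the floor gave -2.75, so no direction is given for it.

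Genes that FGF and MAP kinase signals are known to induce gave the highest median of the lists with a measured gene, 0.74. This list, like the others, was chosen with earlier results of these data known. All 9 measured of 12 analysed genes lay above 0. With the span trend removed Spred1 stood at -0.01 and the rest stayed above 0. At 2-fold, 3 of the 9 were higher with T+E2 and 0 lower. Spry4, a feedback inhibitor gene, had 131 with T+E2 and 28.9 in untreated cells, under the floor, which is at least 4.10-fold higher (log2 2.04). Of its 4 probe sets 2 reached the floor, the dimmer of them giving 1.43, and a log2 floor of 6 gave 1.04. Dusp5, which encodes a phosphatase that inactivates the kinase ERK, had 1202 with T+E2 and 402 in untreated cells (1.58). Spred2, another inhibitor gene of the cascade, had 1277 with T+E2 and 615 in untreated cells (1.05). With the span trend removed Spry4 stood at 2.10, Dusp5 at 1.67 and Spred2 at 0.67. Spred2 also came under 2-fold as the mean of its 5 probe sets, 3 of them under the floor (0.08), and with centring on the median difference (0.98).

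Among 7 genes of HGF receptor partners 5 were measured, with 2 at least 2-fold higher, 0 lower and a median of 0.61. Lrig1, which encodes a membrane protein that lowers receptor tyrosine kinase levels, had 673 with T+E2 and 297 in untreated cells (1.18). Ptprj, which encodes a receptor phosphatase, had 295 with T+E2 and 134 in untreated cells (1.14). With the span trend removed Lrig1 stood at 0.81 and Ptprj at 0.67. The call for Lrig1 depended on the probe set. The brightest of its 3 sets gave 1.18, the dimmest gave 0.78 and the mean of the 3 gave 0.67. That mean lies under both values, so the remaining Lrig1 set differed by less than either. The dimmer Ptprj set at the floor gave 0.60.

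Over all 9 lists, 58 of 104 analysed genes were measured. The lists were chosen with earlier results of these data known, so the comparison with all genes describes them and is not an independent check. At 2-fold, 11 of the 58 were higher with T+E2 and 0 lower, where the shares over all measured genes were 4.96% higher and 4.01% lower. The 11 include Cblb, whose probe sets at the floor lay on opposite sides of 0. Of the 58, 52 lay above 0 and 6 below. Their median log2 difference was 0.54, against 0.07 over all measured genes, of which 55.9% lay above 0. With the span trend removed, 4 of the 58 were at least 2-fold higher and 0 lower, where the shares over the 10250 genes with a span were 2.96% higher and 4.22% lower. The median over all genes was then 0.01. Plat (-0.61) and Itga6 (-0.53), which had been below 0 before, stayed there. Others of the 58 moved below 0, among them Hs6st2 (-0.55), Sdc2 (-0.37) and Hs2st1 (-0.36), and most still lay above.

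**Figure D4:**
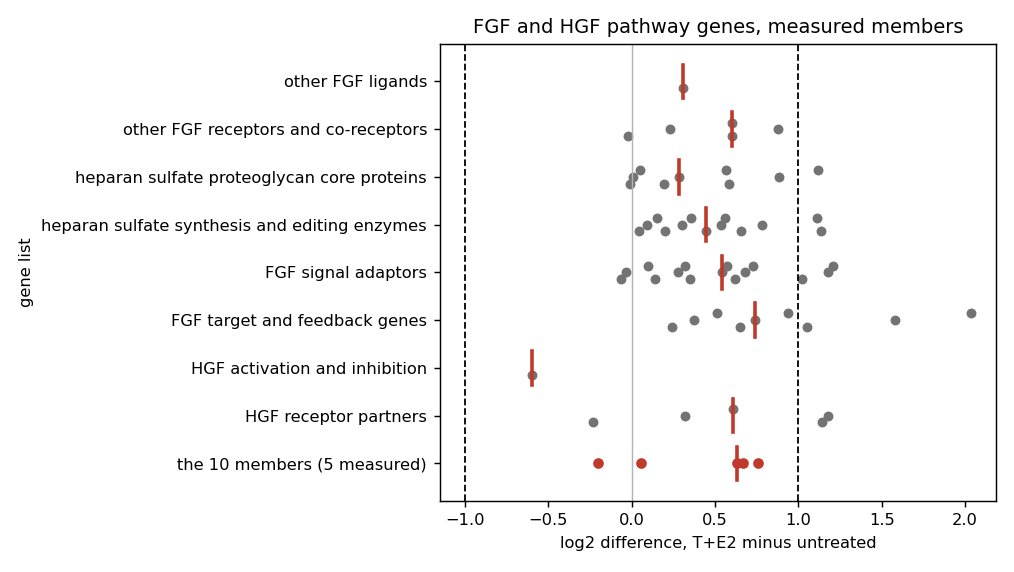
Log2 difference (T+E2 minus untreated, 1 array each) of the measured genes of each list, 1 point per gene, with the list median as a red bar and dashed lines at 2-fold, and the 5 measured members at the bottom in red. Most points lie right of 0, and the points past 2-fold are all on the right. Cblb is among these by its brightest probe set, and its other set at the floor lay below 0.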

How the data were processed

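The labels and the submitters' processing notes give total RNA, biotinylated cDNA from NuGEN kits, an Affymetrix mouse expression array per culture and GCRMA, with no version recorded there. The authors deposited an intensity for each probe set, on a linear scale after GCRMA. Here intensities were taken to log2 without rescaling (Python 3.11.15, pandas 2.3.3), and both arrays were set to a floor of 5 before a difference was formed. Differences are T+E2 minus untreated, and the call was at least 2-fold. The probe set with the highest mean log2 gave a gene's value. Gene names came from the annotation of the platform, brought up to date by gene identifier with RefSeq (GRCm38.p6): 34945 named 1 gene, 932 several and 9160 none, and 64 were controls. Of 18193 genes, 18145 had a genomic span. The span trend was a lowess curve (fraction 0.3, statsmodels 0.14.6). With 1 array per group no test was run, and precision is limited by that number. The 2-fold count and the trend removal were tested on simulated data with planted effects and a chosen noise level. That checks the code, and cannot say how often noise passes 2-fold on these arrays. The members, gene lists and motifs were chosen with earlier results of these data known. Named genes are all members, and from each list up to 4 genes at least 2-fold different, or otherwise the 2 largest. Listed genes under the floor and markers are named too. Outside that rule, Hs6st2, Hs2st1, Ext1, Glce, Sdc2, Itga6, Spred1, Ptpn11 and Dusp6 are named after their values under an alternative were seen. The androgen receptor gene and 8 pathway genes are not analysed here. The alternatives were other floors, other probe set choices, centring, an added offset and the span trend.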

Additional observations from a re-analysis of the deposited data

How the results depend on the processing

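The count of members at least 2-fold different was 0 under all 8 alternatives, and the count of measured members was 7 with a floor of 4, where Fgf18 and Fgfr3 entered, and 5 under the other alternatives that use a floor. Fgfr1, Fgfr2 and Met lay above 0 and Fgfrl1 below 0 under all 8. Their values lie far above the floor, so the changes of floor and the offset could hardly move them. For Fgfr2 and Met the dimmest set at the floor is the only one there, so that alternative repeats the main value. Fgf7 turned to -0.15 with the mean of its probe sets, -0.36 with the dimmer one, -0.01 with centring and -0.17 with the span trend removed. Of pathway genes, 11 were at least 2-fold different, and 6 when probe sets were averaged. Of those 6, 3 were among the 11 (Hspg2, Hs3st3a1 and Dusp5) and 3 were not (Il17rd, Ptpn11 and, on the lower side, Plat). Of the 11, 4 came under 2-fold in size and 4 had a mean under the floor (Spry4, Gab2, Hs3st3b1 and Ptprj). The mean takes in probe sets under the floor, and each of these last 4 genes had some. Why probe sets of a gene differed was not tested. With the span trend removed 4 pathway genes were at least 2-fold different, namely Spry4, Dusp5, Hs3st3b1 and Dusp6, the last at 1.12 and named after its values were seen. Cblb turned to -0.61 with the mean of its probe sets and to -2.75 with its dimmest at the floor. Over all genes, 509 were at least 2-fold higher and 412 lower, and 408 and 520 with centring, 315 and 400 when probe sets were averaged, and 303 and 433 with the span trend removed. No paired analysis was possible because each group holds 1 array. Signal near background limits Fgf2, Fgf10, Fgf18, Fgfr3 and Hgf. No difference is given for them with a floor, and from those listed below without one no direction is read.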

Other observations

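Without a floor, every member has a difference between the arrays. Those of the 5 unmeasured members were -0.17 for Fgf18, 0.01 for Fgf10, 0.03 for Hgf, 0.19 for Fgf2 and 0.21 for Fgfr3 (log2, T+E2 minus untreated), all taken between intensities under the floor. The dim Fgfr2 probe set 1420847_a_at had the largest difference of the 20 member probe sets, 1.05, at intensities of 16.2 with T+E2 and 7.83 in untreated cells.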
